A study of Mus musculus with 6 samples.

Results

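The muscle lineage factors Pax7, Pax3, Myf5, Myod1, Myog, Myf6, Six4, Mef2a and Mef2c were followed through CPEB4 immunoprecipitates of mouse muscle stem cells. These 9 genes were taken by name. All 9 were among the 55376 genes of the count table, and all 9 were among the 18054 that passed the filter on low counts. The study used RNA immunoprecipitation (RIP), in which an antibody recovers a protein together with bound RNA, to look for messages bound by CPEB4, a cytoplasmic polyadenylation element-binding protein that regulates translation. The groups were RIP with an antibody to CPEB4 (CPEB4 RIP), RIP with a nonspecific antibody (IgG RIP) and total RNA (input), with 2 libraries each. All 6 libraries came from sorted muscle stem cells of C57BL/6 mice aged 3 months, with no further treatment given in the labels, and were made by SMART-seq2, a full-length cDNA method. The design text calls the CPEB4 RIP pair biological replicates and does not say this of the other pairs, nor how many animals were used. P-values measure the spread between these libraries, which may be technical in part.

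Pax7 and Pax3 are paired-box factors that specify muscle progenitors, and Pax7 marks the adult muscle stem cell, also called the satellite cell. Myf5, Myod1, Myog (myogenin) and Myf6 (also called Mrf4) are the basic helix-loop-helix myogenic regulatory factors, which bind E-box sequences with E protein partners. Myf5 and Myod1 act in commitment and activation, and Myog drives terminal differentiation. Six4 is a homeodomain factor that binds MEF3 sites, and Mef2a and Mef2c are MADS-box factors that act together with the myogenic regulatory factors on muscle genes. Quiescent satellite cells are known to hold Myf5 message without making its protein, so control of translation is of interest for this group.

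The regulatory link among the factors is best known at the promoter of Myog, which is shown for that reason. The window runs from 250 bases before to 50 bases after the start of the gene in RefSeq (GRCm38.p6, chr1:134289754-134290053, plus strand), and the capitals mark matches to an E-box or a MEF3 motif. These libraries measure RNA, so they do not test binding at this window.
Myog: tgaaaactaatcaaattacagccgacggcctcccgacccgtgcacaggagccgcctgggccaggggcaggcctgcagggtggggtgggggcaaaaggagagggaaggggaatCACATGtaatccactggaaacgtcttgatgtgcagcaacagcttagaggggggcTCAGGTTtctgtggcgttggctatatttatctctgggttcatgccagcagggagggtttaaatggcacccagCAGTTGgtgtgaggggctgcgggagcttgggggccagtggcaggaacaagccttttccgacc
The window holds 2 E-boxes (CANNTG), 138 and 12 bases before the start, and 1 MEF3 motif (TCAGGTT), 84 bases before it, with no overlap between them and both strands searched. An E-box occurs in 72.3% of 32851 RefSeq promoter windows of this length and the MEF3 letters in 4.07%. A strict MEF2 consensus had 0 matches in the Myog window and 1 in that of Mef2a, against 3.19% of all windows. A site that departs from that consensus in 1 letter is not counted, so MEF2 sites are not excluded here. Of 3 windows of Mef2c, 1 holds 2 E-boxes and a MEF3 motif and another holds 1 E-box, and 1 of 2 windows of Six4 holds a MEF3 motif. The same search found no E-box in the windows of Pax7, Myf5, Six4 and Mef2a. Windows for Pax3, Myod1 and Myf6 were not used here.

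Assigned counts were 12679621 and 20843042 with the CPEB4 antibody, 9018323 and 14225502 with IgG, and 16314360 and 12426827 in input. The IgG RIP libraries stood apart from each other. Their log2 CPM (counts per 1000000, scaled with TMM factors, trimmed means of log ratios) correlated at r = 0.873 across 18054 genes, against 0.981 between the CPEB4 RIP libraries and 0.975 between the input libraries. Each IgG RIP library correlated more closely with every CPEB4 RIP and input library (0.891 to 0.939) than with the other IgG RIP library. The median gap between replicates over all these genes was 0.25 log2 units for CPEB4 RIP, 0.67 for IgG RIP and 0.33 for input. For the stem cell label, 15 further markers of these cells had counts in all 6 libraries and summed to between 46609 and 65794 CPM per library, most of it Sdc4, at 41597 to 61956 CPM. The other 14 summed to 3607 and 3838 CPM with the CPEB4 antibody, 4536 and 4865 with IgG, and 5012 and 5418 in input. Vcam1, Chodl and Cav1 made up most of that sum in every library, so it does not describe the typical marker. The median log2 fold change of the 15 markers in CPEB4 RIP was 0.52 over input and 0.22 over IgG RIP. The 10 endothelial markers summed to between 322 and 634 CPM and 10 leukocyte markers to between 34.9 and 84.6 CPM. The 10 fibro-adipogenic markers summed to 2595 and 1953 CPM with the CPEB4 antibody, 1227 and 1750.1 with IgG, and 846 and 1122 in input. Hemoglobin and other erythroid markers (7 genes) summed to 658 and 328 CPM with the CPEB4 antibody, 89.0 and 147 with IgG, and 109 and 180 in input. All endothelial and fibro-adipogenic markers had counts in all 6 libraries, while 0 to 3 of the 10 leukocyte markers and 0 to 2 of the 7 erythroid markers were at 0 counts per library.

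Myf5, Myod1 and Pax7 had message levels above those of the other 6 factors in every library. In bulk libraries such as these, fewer cells that hold a message and less of it per cell cannot be told apart. On the FPKM scale (fragments per kilobase of gene model, from the authors), which allows genes to be compared, Myf5 averaged 974 over the 6 libraries with a range of 407 to 1598. By that mean, which includes the immunoprecipitates, it ranked 21st of the 18054 genes tested. Myod1 averaged 347 FPKM (287 to 389) and Pax7 27.1 FPKM (18.7 to 36.1). In input, the only total RNA, the means were 596 FPKM for Myf5, 309 for Myod1 and 19.9 for Pax7. The ranges of these 3 genes did not overlap, and the order Myf5, Myod1, Pax7 held in 6 of 6 libraries.

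Among the other 6, mean FPKM over all 6 libraries was above that of 66% of tested genes for Myog and 65.2% for Mef2a. The share was 52% for Myf6, 42% for Pax3 and 31.9% for both Mef2c and Six4. Myog averaged 3.10 FPKM and Mef2a 2.99, with ranges that overlapped, and Myog was the higher of the pair in 2 of 6 libraries. Myf6 followed at 1.48 FPKM, below Mef2a in 6 of 6 libraries although the ranges overlapped. Pax3 (0.86), Mef2c (0.49) and Six4 (0.49) were the lowest, and each overlapped its neighbour in this order. Few counts lay behind some of these values. Myf6 had between 19 and 58 counts per library, and a count of 19 has an exact Poisson 95% interval of 11.4 to 29.7 for counting error only. Together the 9 genes held 0.388% and 0.500% of the counts with the CPEB4 antibody, 0.352% and 0.582% with IgG, and 0.254% and 0.342% in input, and Myf5 made up 52.1% to 76.7% of that share. PCR reads without molecular identifiers are not independent molecules.

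**Figure D1:**
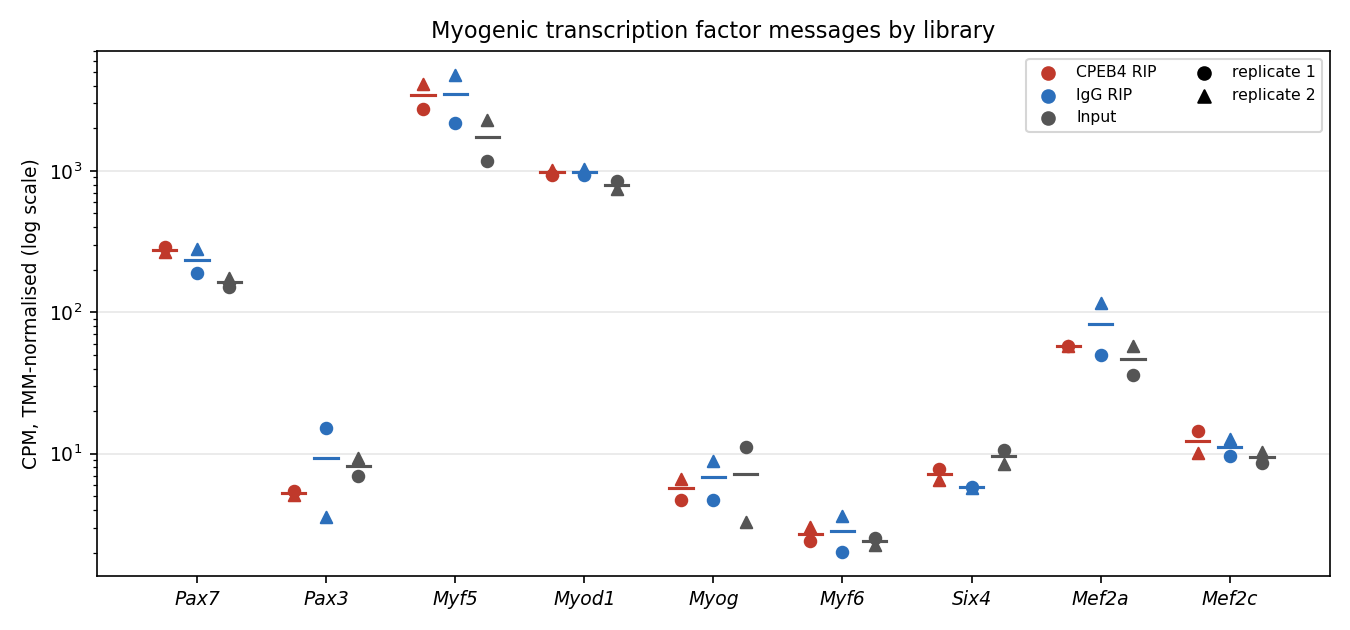
CPM (TMM-normalised, log axis) of the 9 factors in each library, with CPEB4 RIP left, IgG RIP in the middle and input right for each gene. Circles are replicate 1, triangles replicate 2 and bars the mean of 2 libraries; Myf5, Myod1 and Pax7 stand above the other 6 genes, and the IgG RIP libraries are widely spaced for Pax3, Myf5 and Mef2a.

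Over IgG RIP, the comparison named in the design text, none of the 9 messages passed the test in CPEB4 RIP. In edgeR's quasi-likelihood test with Benjamini-Hochberg adjustment over all genes, 0 of 9 passed an adjusted p of 0.05, where 8.21% of all genes tested did (4.79% higher and 3.42% lower). At an unadjusted p under 0.05 there were 0 of 9 factors and 4838 of all genes. DESeq2 called 0 factors and 2892 genes, and limma on log2(FPKM + 1) called 0 factors and 1761 genes. The median log2 fold change of the 9 genes was -0.02, against -0.07 over all genes. The groups did not overlap in CPM for 1 of the 9 genes, Six4, which was on the high side. Over all genes 54.9% did not overlap, 29.4% on the high side and 25.5% on the low side.

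Pax7 had 290 and 265 CPM with the CPEB4 antibody, 189 and 282 with IgG, and 151 and 174 in input. The CPEB4 RIP pair lay on either side of the higher IgG RIP library and above both input libraries. Its log2 fold change over IgG RIP was 0.24 (SE 0.21, adjusted p = 0.499, edgeR), with a 95% interval of -0.25 to 0.72. Pax7 lies on chromosome 4, 139737059 to 139833530 (GRCm38), and overlaps the span of the RefSeq noncoding gene Gm46873.

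Pax3, the paralogue of Pax7, had 5.47 and 5.15 CPM with the CPEB4 antibody, 15.1 and 3.55 with IgG, and 7.02 and 9.37 in input. The 2 IgG RIP libraries lay on either side of all other libraries, at a 4.27-fold distance, the widest between replicates among the 9 genes in any group. The log2 fold change over IgG RIP was -0.80 (SE 0.62, adjusted p = 0.444, edgeR), and its 95% interval, -2.26 to 0.65, spans both directions. Pax3 lies on chromosome 1, 78101267 to 78197136.

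Myf5 was the most abundant of the group. Its level was 2761 and 4098 CPM with the CPEB4 antibody, 2179 and 4794 with IgG, and 1172 and 2298 in input. The CPEB4 RIP values lay inside the range of IgG RIP. The log2 fold change over IgG RIP was -0.024 (SE 0.42, adjusted p = 0.978, edgeR), with a 95% interval of -1.01 to 0.96. Myf5 (chromosome 10, 107482908 to 107486927) lies 5921 bases from Myf6 on the same chromosome, and on the FPKM scale it exceeded Myf6 by between 278-fold and 815-fold in every library.

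Myod1 was the steadiest of the 9 genes. It had 931 and 1019 CPM with the CPEB4 antibody, 930 and 1025 with IgG, and 851 and 750 in input, and its highest library exceeded its lowest by 1.37-fold. The 2 kinds of immunoprecipitate had nearly the same pair of values. The log2 fold change over IgG RIP was -0.0037 (SE 0.14, adjusted p = 0.990, edgeR), and the 95% interval of -0.32 to 0.32 holds no change of 2-fold in either direction. The same was true of Pax7 and Mef2c, and of no other factor. Myod1 lies on chromosome 7, 46376474 to 46379092.

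The later factors Myog and Myf6 had between 2.03 and 11.1 CPM in every library. Myog had 4.72 and 6.67 CPM with the CPEB4 antibody, 4.69 and 8.91 with IgG, and 11.1 and 3.28 in input. Its input libraries spanned all the others. On the log2 scale Myog stood at -0.26 over IgG RIP (SE 0.62, 95% interval -1.70 to 1.18, adjusted p = 0.821, edgeR). Myf6 had 2.40 and 3.05 CPM with the CPEB4 antibody, 2.03 and 3.62 with IgG, and 2.56 and 2.26 in input, and all 3 groups overlapped. Myf6 stood at -0.056 over IgG RIP (SE 0.56, 95% interval -1.37 to 1.26, adjusted p = 0.962, edgeR). For both genes the interval allows more than a 2-fold difference either way. Myog lies on chromosome 1, 134290004 to 134292548, and Myf6 on chromosome 10, 107492848 to 107494723.

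Six4, the homeodomain factor, had 7.79 and 6.57 CPM with the CPEB4 antibody, 5.86 and 5.74 with IgG, and 10.7 and 8.51 in input, so CPEB4 RIP lay above IgG RIP and below input with no shared values. Its log2 fold change over IgG RIP was 0.30 (SE 0.34, 95% interval -0.49 to 1.10, adjusted p = 0.601, edgeR), which did not pass. Six4 (chromosome 12, 73099609 to 73114031) overlaps the span of the protein-coding gene Mnat1, and without a stated strand setting reads of the pair cannot be told apart with certainty. The same limit holds for Pax7 and Mef2c, whose spans also overlap other genes.

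The MADS-box factors did not pass either. Mef2a had 57.6 and 57.3 CPM with the CPEB4 antibody, 50.01 and 116 with IgG, and 36.2 and 57.8 in input. The 2 CPEB4 RIP libraries were almost equal, while IgG RIP replicate 2 was the highest of all. The log2 fold change over IgG RIP was -0.53 (SE 0.39, 95% interval -1.43 to 0.36, adjusted p = 0.412, edgeR). Mef2c had 14.4 and 10.1 CPM with the CPEB4 antibody, 9.70 and 12.6 with IgG, and 8.65 and 10.3 in input, with all groups overlapping. Mef2c stood at 0.13 log2 units over IgG RIP (SE 0.33, 95% interval -0.63 to 0.89, adjusted p = 0.831, edgeR). Mef2a lies on chromosome 7, 67231163 to 67376456. Mef2c lies on chromosome 13, 83504017 to 83667079, and overlaps the spans of the noncoding genes Gm52043 and Gm52044.

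**Figure D2:**
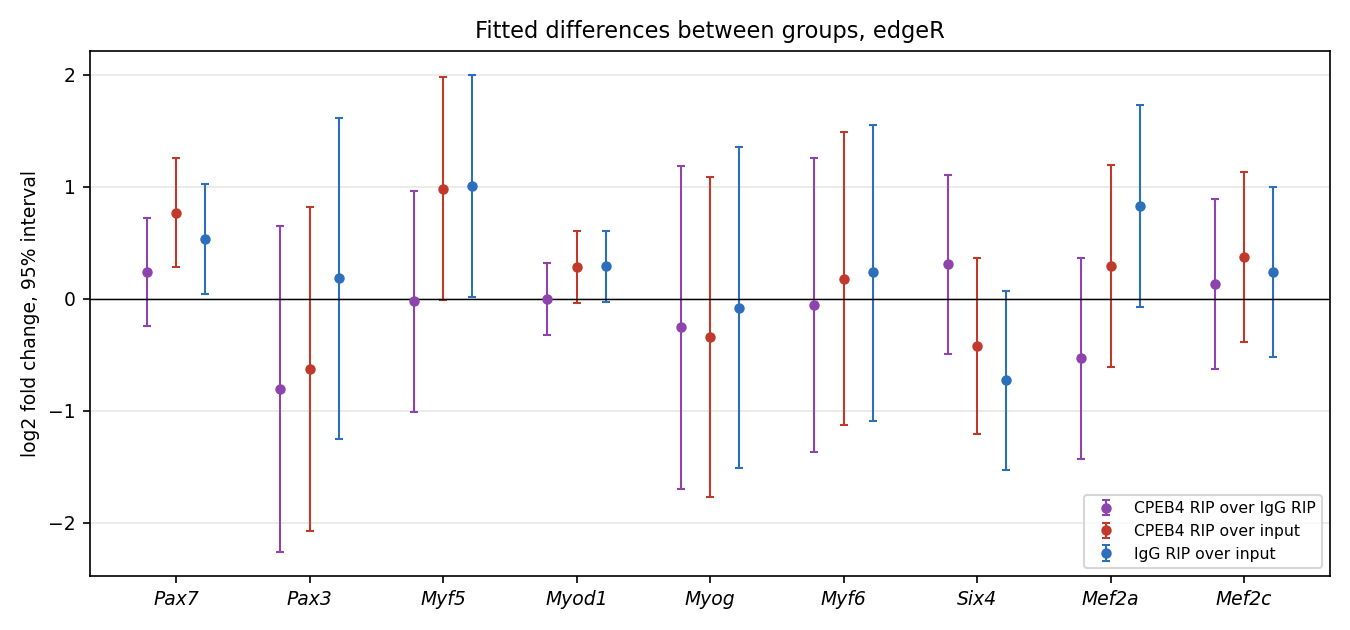
Log2 fold change of each factor with its 95% interval in edgeR, for CPEB4 RIP over IgG RIP, CPEB4 RIP over input and IgG RIP over input. The intervals of Pax7 lie above 0 in both comparisons with input and cross 0 over IgG RIP; those of Myod1 are the narrowest.

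Which IgG RIP library was used decided 4 of these values. Without IgG RIP replicate 2, Pax7 was higher in CPEB4 RIP by 0.69 log2 units (SE 0.20, adjusted p = 0.00666, edgeR). In the same fit Myf5 was higher at 0.80 (SE 0.24, adjusted p = 0.00771) and Pax3 was lower at -1.38 (SE 0.33, adjusted p = 0.00113). Without IgG RIP replicate 1, Mef2a was lower at -0.83 (SE 0.21, adjusted p = 0.00138), while Pax7 stood at 0.16 and Myf5 at -0.30, neither past the test. Pax3 turned to 0.76 in that fit (adjusted p = 0.138). These fits assume that the lone IgG RIP library varies like the other groups, and they called many genes of every kind: 3 of 9 factors passed without replicate 2 and 1 of 9 without replicate 1, against 35.1% (18.5% higher and 16.5% lower) and 37.0% (23.6% higher and 13.4% lower) of all genes tested. Myod1, Myog, Myf6, Six4 and Mef2c passed in neither fit.

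**Figure D3:**
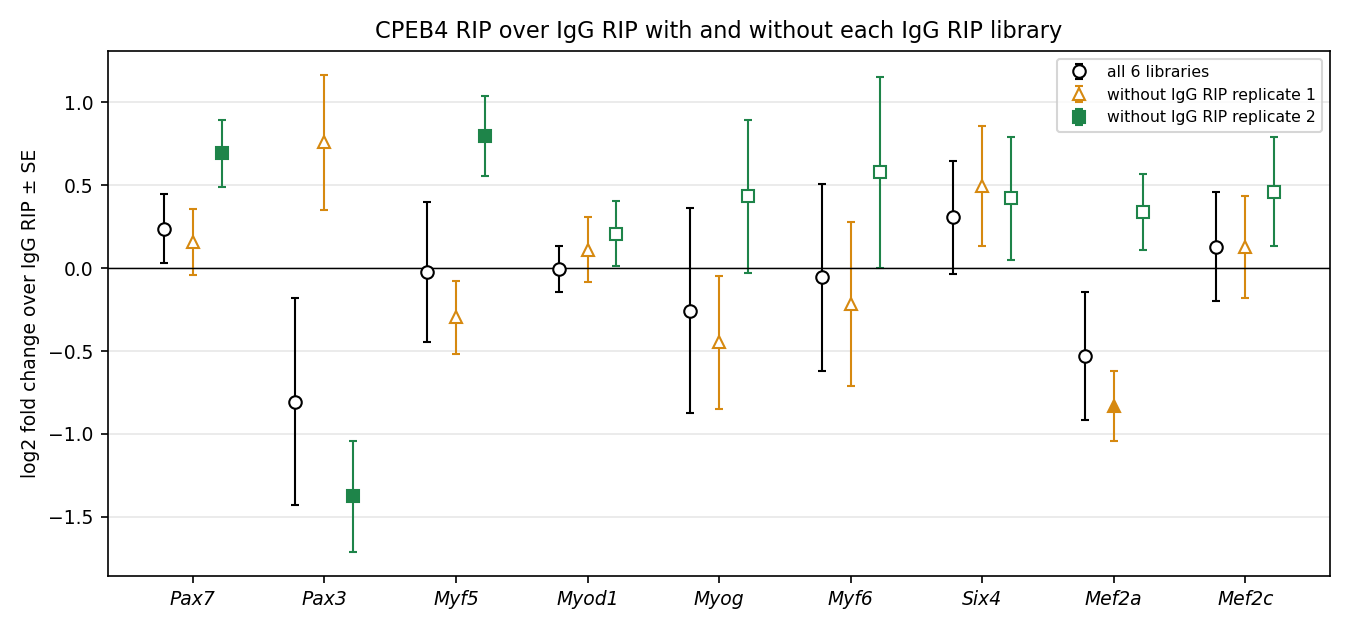
Log2 fold change of CPEB4 RIP over IgG RIP for each factor, ± SE, with all 6 libraries (circles), without IgG RIP replicate 1 (triangles) and without IgG RIP replicate 2 (squares). Filled symbols have an adjusted p under 0.05 in edgeR; Pax3, Myf5, Myog, Myf6 and Mef2a change sign with the IgG RIP library that is kept.

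Over input, Pax7 and Myf5 had the widest positive differences in CPEB4 RIP, but neither passed in the fit to all 6 libraries. That fit estimates the spread of each gene over all 6 libraries, so the widely spaced IgG RIP pair enters this test. In edgeR 0 of 9 factors passed, where 12.7% of all genes tested did (1445 genes higher and 849 lower); 1 of 9, Pax7, had an unadjusted p under 0.05, as did 5070 of the 18054 genes. The median log2 fold change of the 9 genes was 0.28, against -0.06 over all genes. Pax7 averaged 277 ± 17.6 CPM in CPEB4 RIP and 163 ± 16.2 CPM in input (SD, n = 2 each), a 1.70-fold difference. The log2 fold change was 0.77 (SE 0.21, 95% interval 0.28 to 1.26, adjusted p = 0.0531, edgeR), just short of the threshold. It passed in 8 of 16 alternative settings, among them the DESeq2 Wald test (adjusted p = 0.00228) and the edgeR fit to the 4 libraries of this comparison (0.00139). The DESeq2 test called 3479 of 18054 genes and the fit to 4 libraries called 7340 of 16966. With 1 CPEB4 RIP or input library left out, Pax7 stood at 0.69 to 0.90 and did not pass.

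Myf5 averaged 3430 ± 946 CPM in CPEB4 RIP and 1735 ± 796 CPM in input (SD, n = 2 each), 1.98-fold apart. Its log2 fold change was 0.98 (SE 0.43, 95% interval -0.0094 to 1.98, adjusted p = 0.182, edgeR), and 5 of the 16 settings called it. Among them was the edgeR fit to the 4 libraries of this comparison (0.95, SE 0.26, adjusted p = 0.00982). With 1 CPEB4 RIP or input library left out, Myf5 stood at 0.60 to 1.57 and was not called. Myod1 stood at 0.28 (SE 0.14, adjusted p = 0.227, edgeR), Mef2c at 0.37, Mef2a at 0.29 and Myf6 at 0.18. Myog (-0.34), Six4 (-0.42) and Pax3 (-0.62) had negative values, and none of these 7 passed (adjusted p of 0.227 to 0.869) or was called in any of the 16 settings. The groups of libraries did not overlap for 5 of the 9 genes, namely Pax7, Myf5 and Myod1 on the high side and Pax3 and Six4 on the low side; over all genes, 72.1% did not overlap, 34.4% on the high side and 37.6% on the low side. The fibro-adipogenic and erythroid marker sums given above were also higher in CPEB4 RIP than in input, and their part in the values of Pax7 and Myf5 was not tested.

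IgG RIP was set against the same input libraries, and Pax7 and Myf5 did not pass there either. In edgeR 0 of 9 factors and 0.00% of all genes passed, and at an unadjusted p under 0.05 there were 2 of 9, Pax7 and Myf5, and 2550 of all genes. DESeq2 called 0 of the 9 factors and 706 of all genes, and limma on log2(FPKM + 1) called 0 factors and 1 gene. Pax7 averaged 235 ± 65.9 CPM in IgG RIP and 163 ± 16.2 CPM in input, 0.53 log2 units apart (SE 0.21, adjusted p = 0.320, edgeR). Myf5 averaged 3487 ± 1849 CPM in IgG RIP and 1735 ± 796 CPM in input, at 1.01 (SE 0.43, adjusted p = 0.350). Mef2a had the next value at 0.82 (SE 0.39, adjusted p = 0.393) and Six4 the lowest at -0.73 (SE 0.34, adjusted p = 0.393). The median over the 9 genes was 0.24, against 0.05 over all genes, and 3 of the 9 did not overlap between groups, against 42.0% of all genes (21.4% higher and 20.7% lower). The difference of CPEB4 RIP from input and that of IgG RIP from input share the input libraries, so the likeness of their values for Myf5 (0.98 and 1.01) and Myod1 (0.28 and 0.29) is given as a description. Without IgG RIP replicate 1, 4 of 9 factors passed in IgG RIP against input, where 32.0% of all genes did (11.0% higher and 20.9% lower): Pax7 (0.67), Myf5 (1.35) and Mef2a (1.19) were higher and Pax3 (-1.32) was lower. Without IgG RIP replicate 2, 0 of 9 passed, against 8.23% of all genes (2.87% higher and 5.36% lower).

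Ratios between factors within a library do not depend on the scaling of libraries to each other. The FPKM ratio of Myf5 to Myod1 was 2.65 and 3.59 with the CPEB4 antibody, 2.09 and 4.18 with IgG, and 1.23 and 2.74 in input. Myf5 thus exceeded Myod1 in every library, and the groups overlapped. The ratio of Pax7 to Pax3 was 55.9 and 54.3 with the CPEB4 antibody, 13.2 and 83.8 with IgG, and 22.8 and 19.6 in input. CPEB4 RIP lay above both input libraries and between the 2 IgG RIP libraries. Myod1 exceeded Myog by 158-fold and 123-fold with the CPEB4 antibody, 159-fold and 92.4-fold with IgG, and 61.6-fold and 184-fold in input. Mef2a exceeded Mef2c by 4.28-fold and 6.08-fold with the CPEB4 antibody, 5.52-fold and 9.83-fold with IgG, and 4.48-fold and 6.00-fold in input. These ratios were not tested.

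**Figure D4:**
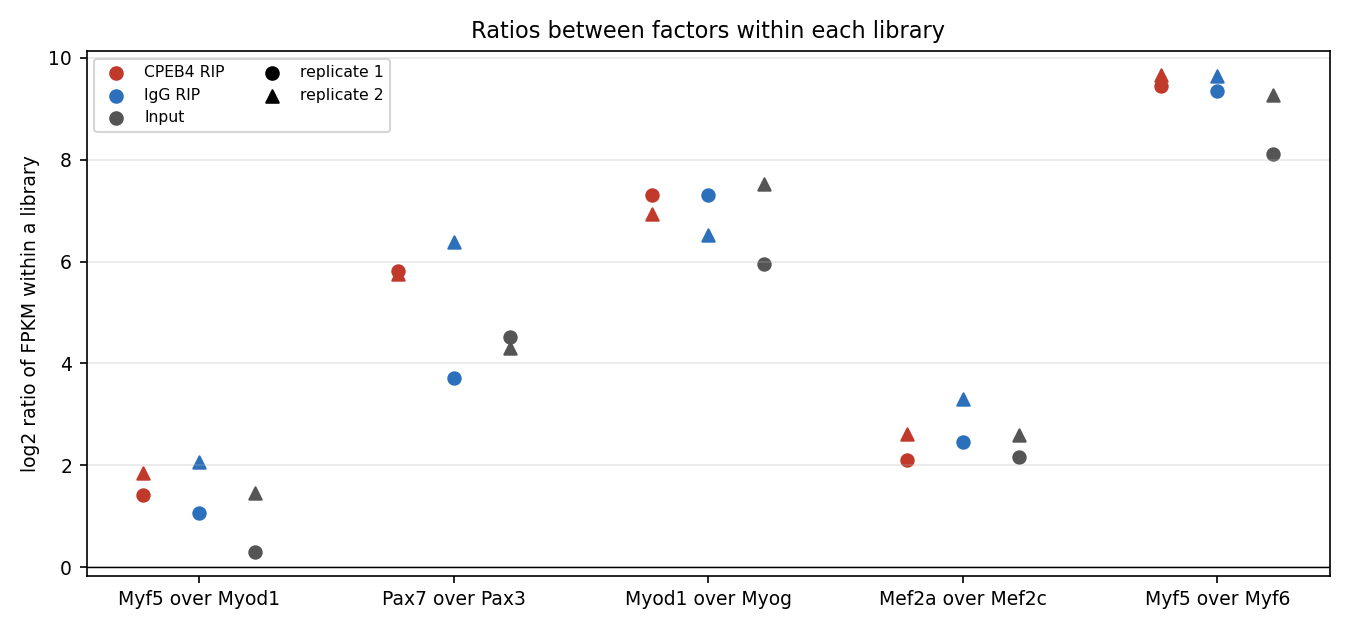
Log2 ratio of FPKM between pairs of factors within each library, with CPEB4 RIP left, IgG RIP in the middle and input right for each pair. Circles are replicate 1 and triangles replicate 2; the ratio of Pax7 to Pax3 is nearly equal in the CPEB4 RIP libraries and lies farthest apart in the IgG RIP libraries.

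Other genes of the myogenic network were read from lists of other genes. Among 25 tested cofactors and partners of the factors, 1 was higher and 0 lower over IgG RIP, where 8.21% of all genes passed in either direction. The higher gene was Kat2b, a lysine acetyltransferase that acetylates MyoD. Kat2b had 38.2 and 40.5 CPM with the CPEB4 antibody, 20.9 and 14.0 with IgG, and 18.8 and 20.8 in input. It stood at 1.18 log2 units over IgG RIP (SE 0.26, adjusted p = 0.0358) and 0.99 over input (SE 0.25, adjusted p = 0.0429) in edgeR. The median of the list was 0.47 over IgG RIP, against -0.07 over all genes. The count over IgG RIP was 0 without either CPEB4 RIP or either input library and 15 without either IgG RIP library, where 35.1% or 37.0% of all genes passed.

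Over input 5 of the 25 cofactors were higher and 0 lower, against 1445 higher and 849 lower among the 18054 genes tested. The median of the list was 0.85, against -0.06 over all genes. The nuclear factor gene Nfix, a regulator of fetal muscle, was the clearest. It had 67.3 and 69.6 CPM in CPEB4 RIP, 47.2 and 51.7 with IgG, and 26.9 and 28.3 in input. It stood at 1.31 log2 units over input (SE 0.18, adjusted p = 0.00500, edgeR). Tcf3, which encodes the E proteins that pair with the myogenic regulatory factors, rose by 1.69 (SE 0.41, adjusted p = 0.0348). Srf, the serum response factor, rose by 1.54 (SE 0.39, adjusted p = 0.0419). Kat2b and Mef2d, another MADS-box factor, completed the count, with Mef2d at 0.85 (adjusted p = 0.0432). Nfix, Tcf3, Srf and Mef2d were not called over IgG RIP, where they stood at 0.47, 1.33, 0.93 and 0.69. IgG RIP itself stood over input at 0.84 for Nfix, 0.36 for Tcf3, 0.61 for Srf, 0.16 for Mef2d and -0.19 for Kat2b, none past the test. Without CPEB4 RIP replicate 2 the count over input was 0, without CPEB4 RIP replicate 1 or either input library it was 1, and without IgG RIP replicate 1 or 2 it was 16 or 15, in fits that called 7966 or 7942 of all genes.

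Antagonists of the factors, such as the Id proteins, Msc and class II histone deacetylases, held 1 lower and 0 higher of 17 tested over IgG RIP and the same over input. In both cases the lower gene was Bhlhe40, a basic helix-loop-helix repressor. It had 119 and 82.7 CPM with the CPEB4 antibody, 185 and 218 with IgG, and 246 and 205 in input. It stood at -1.0 log2 units over IgG RIP (SE 0.21, adjusted p = 0.0332) and -1.17 over input (SE 0.21, adjusted p = 0.0139) in edgeR. Among all genes, 3.42% were lower over IgG RIP and 849 of 18054 were lower over input. The list medians were -0.14 and 0.09, against -0.07 and -0.06 over all genes.

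Of 19 tested differentiation genes that the factors activate, 1 was higher and 0 lower over IgG RIP, and 4 were higher and 0 lower over input. Among all genes, 4.79% were higher over IgG RIP and 1445 of 18054 were higher over input. The median of the list was 0.14 over IgG RIP and 0.24 over input, against -0.07 and -0.06 over all genes. Genes of the list that did not pass over input included Neb at -1.66 and Ttn at -1.43. They also included Chrng (-4.85) and Myh8 (-3.39), both below 3 CPM in every library. The myosin light chain gene Myl1 had 50.2 and 40.6 CPM with the CPEB4 antibody, 13.0 and 15.3 with IgG, and 13.1 and 24.6 in input. It stood at 1.68 over IgG RIP (SE 0.33, adjusted p = 0.0259) and 1.27 over input (SE 0.32, adjusted p = 0.0421) in edgeR. Over input the cell cycle inhibitor gene Cdkn1c (2.09, adjusted p = 0.00839, edgeR), the slow troponin gene Tnnt1 (1.20, 0.00927) and the desmin gene Des (0.99, 0.00654) were also higher. None of these 3 passed over IgG RIP, where they stood at 1.05, 0.72 and 0.14. IgG RIP itself stood over input at 1.04 for Cdkn1c, 0.48 for Tnnt1 and 0.86 for Des, none past the test. Of 11 tested markers of mature myofibres, 3 were higher over IgG RIP and 3 over input, and 0 were lower in either comparison. Among those that did not pass over IgG RIP, Myh4 stood at -1.28 and Ryr1 at -1.03. All 12 markers of the list summed to 241 and 213 CPM with the CPEB4 antibody, 149.9 and 148 with IgG, and 148 and 163 in input. Their part in the values of the differentiation genes was not tested.

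Other markers of the stem cell moved in both directions. Over IgG RIP 1 of 15, the receptor Fgfr4 (0.75, adjusted p = 0.0421), was higher and 1, the adhesion gene Vcam1 (-0.87, adjusted p = 0.0117), was lower in edgeR. Over input 4 were higher and 3 lower. Among all genes, 8.21% passed over IgG RIP and 12.7% over input, in either direction. The median of the list was 0.22 over IgG RIP and 0.52 over input, against -0.07 and -0.06 over all genes. Vcam1 had 691 and 751 CPM in CPEB4 RIP and 1643 and 1614 in input, at -1.18 log2 units (SE 0.12, adjusted p = 0.00267). The calcitonin receptor gene Calcr, a quiescence marker, had 95.4 and 90.4 CPM in CPEB4 RIP and 257 and 228 in input, at -1.38 (SE 0.22, adjusted p = 0.00890). Sdc4 (0.52, adjusted p = 0.0161, edgeR) and the signalling inhibitor Spry1 (0.84, adjusted p = 0.0185) were higher. Over IgG RIP, Calcr stood at -0.72, Sdc4 at 0.12 and Spry1 at 0.45, none past the test. IgG RIP stood over input at -0.66 for Calcr and at 0.39 for both Sdc4 and Spry1. Without CPEB4 RIP replicate 2 no gene of these 4 lists was called in either comparison, and without CPEB4 RIP replicate 1 none was over IgG RIP. Without an IgG RIP library, the differentiation genes called numbered 8 over IgG RIP and 10 or 11 over input, the antagonists 4 or 9 and 7 or 8, and these stem cell markers 7 or 8 and 12. Those fits called 35.1% or 37.0% of all genes over IgG RIP and 7942 or 7966 genes over input. Without an input library, 1 or 2 differentiation genes and 1 of these markers were called over input, with no cofactor or antagonist over IgG RIP; without input replicate 1 no antagonist was called over input.

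**Figure D5:**
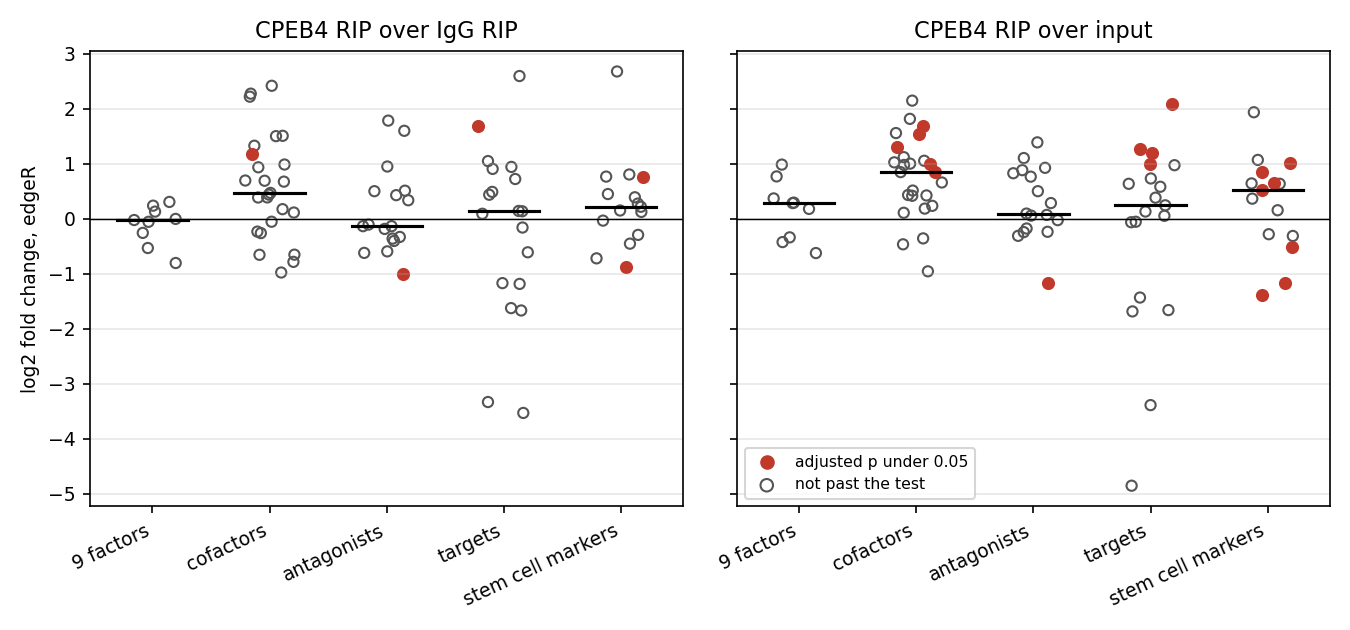
Log2 fold change in edgeR of each tested gene in the 9 factors and in 4 lists of other genes, for CPEB4 RIP over IgG RIP (left) and over input (right). Filled points have an adjusted p under 0.05 and bars are list medians; no filled point lies among the 9 factors, and 5 of 25 cofactors are filled over input.

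The genes with library profiles most like each factor were found by the root mean square difference of centred log2 CPM over the 6 libraries, among 7406 genes with at least 10 CPM. For Pax7 they were Fam107b (0.058), Nppc (0.068) and Klf3 (0.073), where Pax7 itself varied by 0.37 around its mean. For Myod1 they were Retreg1 (0.050), Gadd45gip1 (0.051) and Runx1 (0.064), with Myod1 at 0.16. Mef2a was nearest to Cd274 (0.10), Socs4 (0.10) and Tst (0.10), with its own variation at 0.50. Mef2c was nearest to Arfip1 (0.091), Clptm1 (0.10) and Serpinf1 (0.11), against 0.24 of its own. The profile of Myf5, which varied by 0.66, had the most distant neighbours, Utp18 (0.16), Ipmk (0.17) and 8030462N17Rik (0.18). With 6 libraries, close profiles are a description only.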

How the data were processed

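RNA was measured in 6 libraries of mouse muscle stem cells. Raw counts per gene were deposited without normalization; HISAT2, featureCounts and mm10 are named in the submitters' processing notes, while for versions, annotation, strand and multiple-match settings no source used here gives a value. FPKM values were also deposited by the authors.

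The analysis used edgeR 4.0.16 in R 4.3.3, with filterByExpr (minimum count 10, minimum total 15), TMM scaling and 1 quasi-likelihood fit by group over the 6 libraries, leaving 3 residual degrees of freedom. P-values were two-sided and adjusted by Benjamini-Hochberg over all 18054 genes, with a threshold of 0.05. SE was the absolute log2 fold change over the square root of F. Total counts were 9018323 to 20843042 per library. DESeq2 1.42.0 and limma 3.58.1 served as alternatives, and the steps were tested on simulated data. The simulation gave all groups the same spread per gene and left genes with few counts unchanged. It therefore does not cover the wider spread between the IgG RIP libraries. Positions are from RefSeq on GRCm38, which matched 38407 of 55376 symbols (69.4%).

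Named genes were the 9 factors, up to 4 genes past the test per list and comparison, and the 3 nearest profiles of factors above 10 CPM; Mef2d was named after its value was seen. The factors and lists were chosen with earlier results of these data known.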

Additional observations from a re-analysis of the deposited data

How the results depend on the processing

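The count of factors past the test over IgG RIP was 0 in each alternative except without an IgG RIP library (0 to 3 over the fits that left out 1 library). Over input it was 0 in the reported fit and reached 2 with no filter on low counts, 1 with a mean count of at least 20, 1 with DESeq2 size factors in edgeR, 1 with the DESeq2 Wald test, 2 with the 4 libraries compared alone, and 0 to 2 with 1 library left out. For IgG RIP against input it was 2 with no filter and 0 to 4 with 1 library left out. Among all genes, calls over IgG RIP numbered 1482, but 2428 with no filter, 2892 with DESeq2, 0 and 762 with limma on log2(FPKM + 0.1) and on unfiltered log2(FPKM + 1), 973 with the 4 libraries alone and 0 to 7710 with 1 library left out. Over input they numbered 2294, but 3479 with DESeq2, 0 and 1523 with the same limma settings, 7340 with the 4 libraries alone and 117 to 7966 with 1 library left out. For IgG RIP against input they numbered 0, but 457 with no filter, 706 with DESeq2, 1, 10 and 32 with limma on log2(FPKM + 1), log2(FPKM + 0.1) and unfiltered values, and 0 to 6657 with 1 library left out. The cause was not tested. The alternatives for the lists of other genes were chosen after seeing the data. With library size alone, 903 genes were higher and 1026 lower over IgG RIP (864 and 618 reported) and 1093 and 1409 over input (1445 and 849 reported); it moved the median of all genes by -0.084 (over IgG RIP), -0.22 (over input) and -0.13 (IgG RIP over input) on the log2 scale.

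Some values changed sign, and not all of them were near 0. In the reported fit Pax3 stood at -0.80 and Mef2a at -0.53 over IgG RIP, and each turned positive when 1 IgG RIP library was left out. Over IgG RIP Myf5 turned to 0.046 with no filter and 0.15 in the limma settings, Myod1 to 0.083 and 0.087, and Myf6 to 0.019 with no filter and 0.037 or 0.079 in limma. Over input Myf6 turned to -0.044 with library size alone. For IgG RIP against input Pax3 turned to -0.025 or -0.17 and Myog to 0.0085 in limma. With 1 library left out, ranges that include a change of sign over IgG RIP were -1.38 to 0.76 for Pax3, -0.30 to 0.80 for Myf5, -0.021 to 0.27 for Myod1, -0.49 to 0.43 for Myog, -0.22 to 0.58 for Myf6 and -0.83 to 0.34 for Mef2a. Over input the range was -0.94 to 0.82 for Myog. For IgG RIP against input they were -1.32 to 0.82 for Pax3, -0.84 to 0.93 for Myog, -0.33 to 0.46 for Myf6 and -0.034 to 0.29 for Mef2c.

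The labels do not say whether a replicate number marks a shared preparation. Deviations of same-numbered libraries correlated across genes at 0.13 for CPEB4 RIP with IgG RIP. The values were -0.016 for CPEB4 RIP with input and 0.070 for IgG RIP with input. With 2 libraries per group, these correlations cannot settle whether the libraries are paired. With a replicate block, 2 factors passed over input, Pax7 (0.78, adjusted p = 0.0255, edgeR) and Myf5 (1.04, 0.00324), and 0 over IgG RIP, where Myf5 stood at 0.061; among all genes 2615 and 1850 passed. IgG RIP against input then had 25 genes and 0 factors, with Pax3 at -0.017. Myf5 had the higher CPM in replicate 2 of all 3 groups and Six4 had the lower, while the other factors differed in direction between groups.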
